A study of Mus musculus with 36 samples.

Results

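The 7 genes described here, Aqp6, Ltbp2, Pappa, Gcnt1, Prr16, Tbata and Ntng1, were chosen by their signal on the stg cerebellum arrays, which was lower in stg-/- than in stg+/+ mice. They are 7 of the 18193 genes that the array annotation names by 1 symbol, and they are covered by 19 of its 45101 probe sets. A probe set is a group of short probes read together as 1 measurement of a transcript. Since the stg cerebellum arrays chose the genes, their values there are given as a description, without a test. The differences in the tg and lh lines, in the forebrain, and between cerebellum and forebrain of tg+/+ and lh+/+ mice were not used in the choice.

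Total RNA from the cerebellum and the forebrain of mice was hybridised to 36 one-colour Affymetrix arrays. They formed 12 groups of 3 arrays: stg-/- and stg+/+, tg-/- and tg+/+, and lh-/- and lh+/+, each in cerebellum and in forebrain. The labels give only these symbols, taken here to mean stargazer, tottering and lethargic, mouse mutants of Cacng2, Cacna1a and Cacnb4. Age and strain background are not given, nor is it said whether a cerebellum and a forebrain array share a mouse, and no treatment other than sacrifice is named. The mutations are carried by every cell of the animal, and tissue was taken whole, so that fewer cells of a type and less RNA per cell cannot be told apart.

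Stargazin, the protein lost in stargazer, belongs to the auxiliary subunits that carry AMPA receptors to the surface, and mossy fibre synapses on stargazer granule cells lack working AMPA receptors. The P/Q-type calcium channel altered in tottering is the main channel for transmitter release in the cerebellum, and the beta subunit lost in lethargic helps such channels to the membrane. The 7 genes share no single pathway. Pappa and Ltbp2 encode secreted proteins of the space around cells, Ntng1 an adhesion protein held on axons by a lipid anchor, Gcnt1 a Golgi enzyme that branches sugar chains, Aqp6 a channel of intracellular vesicles, Prr16 a regulator of cell size described in human cells, and Tbata a protein first known from thymus and testis.

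The genes lie on different chromosomes of the mouse assembly GRCm38.p6: Aqp6 on 15, Ltbp2 on 12, Pappa on 4, Gcnt1 on 19, Prr16 on 18, Tbata on 10 and Ntng1 on 3. Cacng2 is on chromosome 15 as well. RefSeq promoter sequences were found for 5 of the 7 genes, and Pappa and Prr16 had no entry. The 250 bases before the annotated start are printed for the 4 genes with a single matched start, so that the sequences can be compared. Whether the promoters bear on the lower signals in stg-/- cerebellum was not tested. The Aqp6 window is chr15:99600950-99601199 on the plus strand, the Ltbp2 window chr12:84876492-84876741 on the minus strand, the Tbata window chr10:61171714-61171963 on the plus strand and the Ntng1 window chr3:110143473-110143722 on the minus strand. Each is written 5′ to 3′ along its gene, and capitals mark a match to a searched motif.
Aqp6: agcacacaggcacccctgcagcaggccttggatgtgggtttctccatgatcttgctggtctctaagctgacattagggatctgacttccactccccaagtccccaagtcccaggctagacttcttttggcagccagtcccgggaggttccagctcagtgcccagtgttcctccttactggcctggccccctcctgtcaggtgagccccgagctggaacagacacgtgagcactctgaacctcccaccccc
Ltbp2: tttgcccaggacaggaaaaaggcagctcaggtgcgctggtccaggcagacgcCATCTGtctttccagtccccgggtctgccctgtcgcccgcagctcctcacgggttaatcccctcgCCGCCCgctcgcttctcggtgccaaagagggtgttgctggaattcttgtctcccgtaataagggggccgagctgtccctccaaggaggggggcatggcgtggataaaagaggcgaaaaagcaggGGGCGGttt
Tbata: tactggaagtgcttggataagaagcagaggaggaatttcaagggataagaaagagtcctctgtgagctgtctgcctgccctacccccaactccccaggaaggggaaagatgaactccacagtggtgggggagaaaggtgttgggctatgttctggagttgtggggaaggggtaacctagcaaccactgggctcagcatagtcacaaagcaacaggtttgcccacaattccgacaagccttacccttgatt
Ntng1: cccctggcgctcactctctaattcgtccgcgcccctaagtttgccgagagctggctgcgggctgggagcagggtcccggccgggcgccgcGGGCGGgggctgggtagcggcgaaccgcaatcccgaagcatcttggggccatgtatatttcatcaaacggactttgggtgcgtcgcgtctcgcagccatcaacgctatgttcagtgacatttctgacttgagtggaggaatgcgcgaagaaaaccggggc

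The motifs searched on both strands were the CRE core TGACG, the AP-1 site TGANTCA, the CCAAT box, the GC box GGGCGG, the TATA box TATAAA and the E-box CAGATG of the kind bound by NeuroD factors. No letter fell in more than 1 match. The Ltbp2 promoter held 2 GC boxes, 133 and 9 bases before the start, and an E-box at 198 bases. Ntng1 held 1 GC box at 160 bases, and the Aqp6 and Tbata windows held none of the motifs. Gcnt1 has 3 annotated starts, and 2 of its 3 windows held a CCAAT box, 1 of them with TATA boxes as well. Among all 32851 RefSeq promoters of that length, 32.7% held the GC box, 33.8% the CCAAT box, 17.8% the CRE core, 14.4% the E-box, 12.4% the TATA box and 6.75% the AP-1 site. No motif was found in the promoters of more than 2 of the 5 genes. The GC content was 62.4% for Ntng1, 61.6% for Ltbp2, 59.6% for Aqp6 and 51.6% for Tbata, where the median promoter had 52.4% with an interquartile range of 45.2 to 61.2%.

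All values below are the deposited linear signals, in arbitrary units, and each gene is represented by its brightest probe set, averaged over the 36 arrays, unless another is named. Changes are differences of log2(signal + 2.98), -/- minus +/+, where 2.98 is the 10th percentile of all values. The added constant shrinks the changes of weak probe sets. Probe sets with the suffix _x_at or _s_at can also match other sequences. The SE is that of limma, fitted over the 18 arrays of a tissue. A probe set was tested where its mean passed the 40th percentile, which left 27022, and was called at a Benjamini-Hochberg adjusted p under 0.05 over all of them. All 7 genes passed in the cerebellum, with 16 of the 19 probe sets, and 3 passed in the forebrain, with 6 probe sets.

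Some facts of the whole series bear on these values. Cacng2 gave 2.43 to 4.72 in stg-/- cerebellum and 473 to 841 in stg+/+ cerebellum, Cacnb4 gave 1300 to 1508 in lh-/- and 1821 to 2596 in lh+/+ cerebellum, and the ranges of Cacna1a overlapped between tg-/- and tg+/+. All 10 cerebellum markers, among them Gabra6 and Pcp2, were higher on each of the 18 cerebellum arrays than on any forebrain array. Of 8 forebrain markers, 5 were lower on each cerebellum array than on any forebrain array and 1, Prox1, was higher. Forebrain arrays of stg+/+ replicates 1 and 2 and of lh+/+ replicate 3 stood apart by the pituitary hormone transcripts Gh, at 2102 to 3526, and Prl, at 2086 to 6052.

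In the stg-/- cerebellum 6 of the 7 genes were lower on all 3 arrays than on any stg+/+ array, and Pappa was the one whose groups overlapped. Over all tested probe sets 7.48% were lower without overlap in that comparison, and 1.3% were called in either direction. The median change of the 7 genes was -1.68, between -2.51 for Aqp6 and -1.15 for Ntng1, while the median over all tested probe sets was 0.01. Counted by probe set, 18 of the 19 had a change below 0, where 47.7% of all tested probe sets did, and 10 were lower without overlap. These counts follow from how the genes were chosen.

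Aqp6, an aquaporin known from vesicles of acid-secreting kidney cells that passes anions as well as water, differed most. Its signal was 39.0, 37.8 and 42.7 on the stg-/- cerebellum arrays, against 219, 330 and 192 on the stg+/+ arrays. The 3 stg-/- values lay within a few units of each other and far below the lowest stg+/+ value. The means were 39.8 ± 2.57 in stg-/- and 247 ± 73.0 in stg+/+ (SD, n = 3 each), a log2 change of -2.51 (SE 0.20) or 5.69-fold lower on that scale. A further Aqp6 probe set, 1447974_s_at, gave 31.5, 37.5 and 39.9 in stg-/- and 105, 107 and 87.3 in stg+/+ cerebellum, a change of -1.39. The probe set 1459982_a_at gave means of 18.7 ± 7.34 in stg-/- and 55.2 ± 14.5 in stg+/+ (SD, n = 3 each), a change of -1.45. The fourth, 1420035_at, did not show the difference, with 27.8 ± 3.18 in stg-/- and 29.1 ± 4.09 in stg+/+ (SD, n = 3 each) and overlapping arrays.

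**Figure D1:**
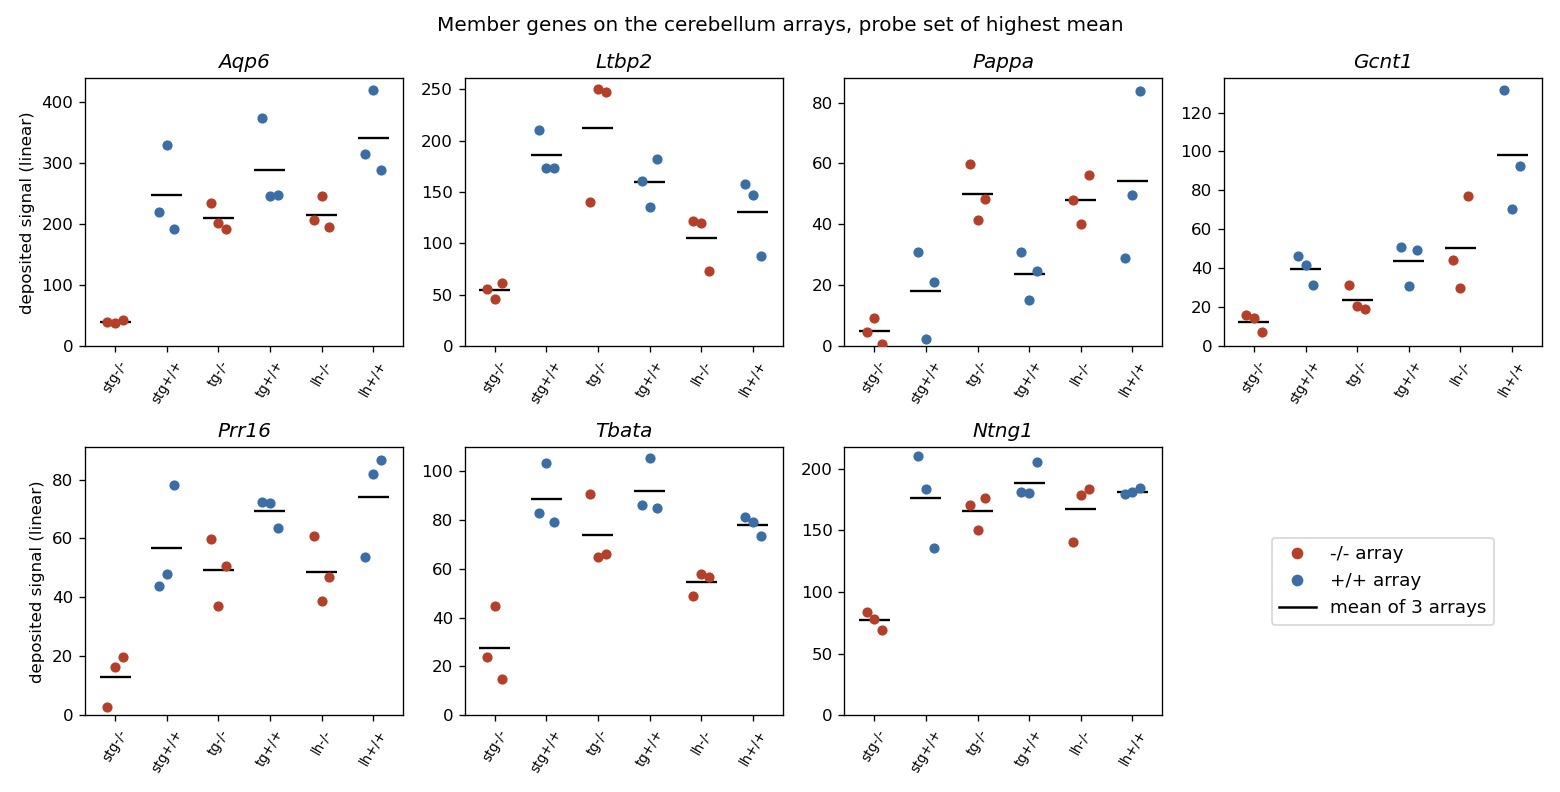
Signal of the 7 genes on each of the 18 cerebellum arrays, on linear axes in deposited units, with -/- left of +/+ in each line, a point for each array and a line at the mean of 3 arrays. The stg-/- points lie lowest in each panel, except that in the Pappa panel an stg+/+ array at 2.47 falls among them.

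Ltbp2 and Pappa encode secreted proteins. Ltbp2 is a matrix protein that binds fibrillin microfibrils and, unlike its relatives, does not hold latent TGF-beta. It gave 55.5, 46.2 and 61.7 in stg-/- cerebellum, against 211, 173 and 174 in stg+/+ cerebellum. All 3 stg-/- values were below all stg+/+ values, and the change was -1.72 (SE 0.25), or 3.29-fold lower.

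Pappa encodes a metalloproteinase that cuts IGF-binding proteins and so frees IGF. Its signal was near the floor, at 4.78, 9.29 and 0.710 in stg-/- cerebellum and 31.0, 2.47 and 21.0 in stg+/+ cerebellum. The second stg+/+ array was lower than 2 of the 3 stg-/- arrays, and the change was -1.22 (SE 0.56). It was -2.02 without stg+/+ replicate 2, -0.75 without stg-/- replicate 3 and -0.70 without stg+/+ replicate 1. Another Pappa probe set, 1427633_a_at, separated the groups, with 4.10, 3.26 and 1.78 in stg-/- against 34.8, 6.77 and 24.9 in stg+/+, a change of -1.87 (SE 0.39). The third, 1432592_at, gave 17.3 ± 6.23 in stg-/- and 17.9 ± 10.6 in stg+/+ (SD, n = 3 each) and was too weak to be tested. How far Pappa was lower therefore depended on the probe set read.

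Gcnt1 makes the core branch of mucin-type O-glycans, the sugar chains on serine and threonine. It gave 15.8, 14.3 and 7.25 in stg-/- cerebellum, against 46.1, 41.7 and 31.6 in stg+/+ cerebellum. No stg-/- array reached the lowest stg+/+ array, and the change was -1.50 (SE 0.35), or 2.84-fold lower. Its other probe set, 1449538_a_at, was weak in both groups, at 7.72 ± 10.3 in stg-/- and 12.2 ± 10.3 in stg+/+ (SD, n = 3 each).

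Prr16 gave 2.76, 16.4 and 19.9 in stg-/- cerebellum, against 43.7, 48.1 and 78.3 in stg+/+ cerebellum. The groups did not overlap, the first stg-/- array lay well below the other 2, and the change was -2.08 (SE 0.39), or 4.24-fold lower. Without stg-/- replicate 1 it was -1.46. Tbata gave 23.7, 44.6 and 14.9 in stg-/- cerebellum, against 82.9, 103 and 79.2 in stg+/+ cerebellum, again without overlap. Its change was -1.68 (SE 0.26), or 3.21-fold lower. The other 3 Tbata probe sets had changes between -0.80 and -0.40, each with overlapping groups.

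Ntng1, netrin-G1, is a membrane-anchored relative of the netrins that binds a partner on dendrites, encoded by Lrrc4c, and is known from thalamic axons. It gave 84.0, 78.0 and 69.0 in stg-/- cerebellum, against 210.3, 184 and 136 in stg+/+ cerebellum. These arrays did not overlap, and at -1.15 (SE 0.15), or 2.22-fold lower, the change had the smallest SE of the 7. The probe set 1430779_at was also lower without overlap, at 80.5 ± 12.1 in stg-/- and 115 ± 8.19 in stg+/+ (SD, n = 3 each), a change of -0.51. The probe set 1426338_a_at had a change of -1.17, but its stg-/- values of 46.0, 71.1 and 5.77 were widely spread and overlapped stg+/+. The fourth, 1441634_at, had a change of -0.04.

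**Figure D2:**
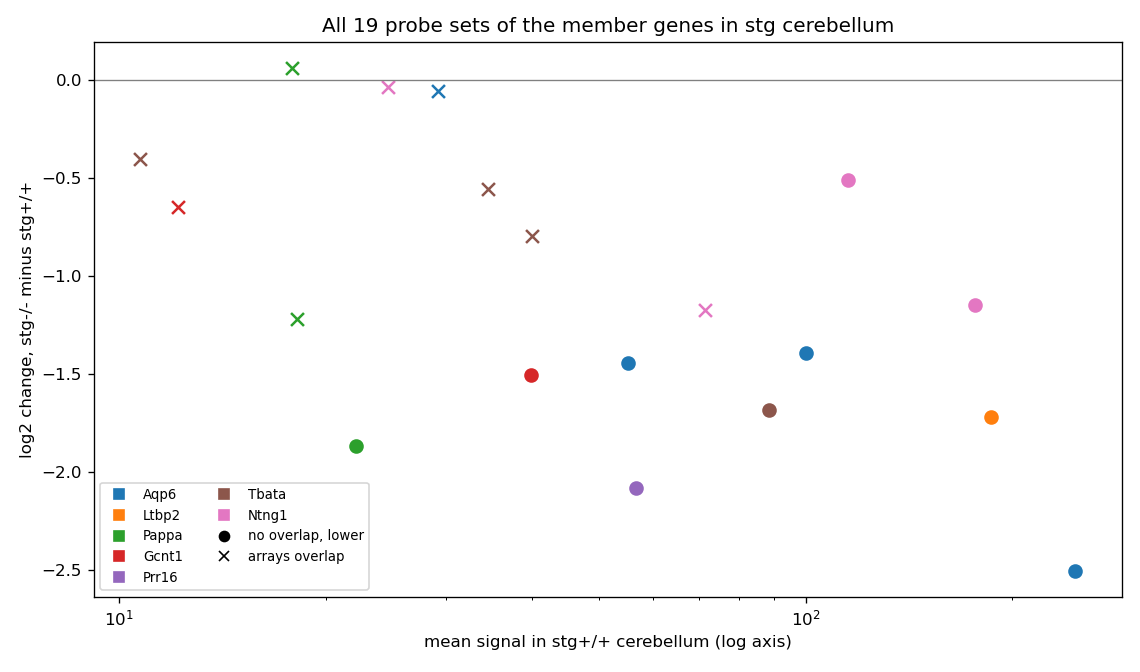
Log2 change in cerebellum, stg-/- minus stg+/+, of each of the 19 probe sets against its mean signal in stg+/+ cerebellum on a log axis, coloured by gene, with dots where the arrays did not overlap and crosses where they did. All but 1 probe set lie below 0, and those of Aqp6 run from -2.51 to -0.06.

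Against the other cerebellum groups the stg-/- mean was the lowest of the 6 for all 7 genes. For Aqp6, Ltbp2, Gcnt1, Prr16, Tbata and Ntng1 each stg-/- array was below all 15 other cerebellum arrays. The gaps differed in width. The highest stg-/- value of Aqp6 was 42.7 and the lowest of the other 15 arrays 192, while for Tbata these were 44.6 and 48.8, for Ltbp2 61.7 and 73.3, and for Gcnt1 15.8 and 18.9. For Pappa 14 of the 15 other arrays were above the highest stg-/- array. These positions rest in part on the stg arrays that chose the genes. The share of all tested probe sets in such a position was not computed.

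The tg and lh mutants gave measurements that did not enter the choice of the genes, and none of the 7 genes was called in either cerebellum. In tg 0 of 7 were called, where 0.574% of all tested probe sets were, and in lh 0 of 7, where 0.155% were. The adjusted p-values of limma ran from 0.568 to 0.937 in tg and from 0.297 to 0.994 in lh. At an unadjusted p under 0.05 there were 2 of 7 in each line, where all tested probe sets gave 7.28% in tg and 7.62% in lh. In both lines these were Aqp6 and Gcnt1. By sign, 5 of 7 changes were below 0 in tg, where 51.6% of all tested probe sets were, and 7 of 7 in lh, where 46.1% were. The median change of the 7 was -0.32 in tg and -0.49 in lh, beside -0.01 and 0.02 over all tested probe sets of those lines.

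Aqp6 gave 234, 202 and 192 in tg-/- cerebellum, against 374, 246 and 247 in tg+/+ cerebellum. In lh it gave 206, 246 and 194 in lh-/-, against 314, 419 and 289 in lh+/+ cerebellum. In both lines all -/- arrays were below all +/+ arrays, but neither change passed the adjustment, at -0.44 (SE 0.20, limma adjusted p = 0.630) in tg and -0.64 (SE 0.20, adjusted p = 0.297) in lh. The Aqp6 probe sets 1447974_s_at and 1459982_a_at had changes of -0.01 and -0.05 in tg and of -0.19 and -0.10 in lh, with overlapping groups. The Aqp6 probe sets thus differed in size outside stg.

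Gcnt1 gave 31.3, 20.7 and 18.9 in tg-/- cerebellum, against 51.0, 30.9 and 49.6 in tg+/+ cerebellum. In lh-/- it gave 44.2, 29.9 and 77.0, against 131, 70.4 and 92.5 in lh+/+. A single array made the groups overlap in each line, tg-/- replicate 1 and lh-/- replicate 3. For the probe set 1449538_a_at, too weak to be tested, the changes were -0.90 in tg and 0.25 in lh. By the brightest probe set they were -0.81 (SE 0.35, limma adjusted p = 0.568) in tg and -0.97 (SE 0.35, adjusted p = 0.415) in lh. Among the +/+ groups the mean was 98.1 ± 30.8 in lh+/+, 43.9 ± 11.2 in tg+/+ and 39.8 ± 7.43 in stg+/+ cerebellum (SD, n = 3 each), and the lh+/+ arrays lay above all arrays of the other two.

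Tbata gave 48.8, 58.0 and 56.7 in lh-/- cerebellum, against 81.0, 79.3 and 73.2 in lh+/+ cerebellum. The arrays did not overlap, though the change of -0.49 (SE 0.26) was not called (limma adjusted p = 0.703). In tg the change was -0.32, with overlapping arrays. Of the 7 genes, 3 were lower without overlap in tg (Aqp6, Prr16 and Ntng1), where 6.81% of all tested probe sets were, and 2 in lh (Aqp6 and Tbata), where 5.47% were. Prr16 had changes of -0.49 in tg and -0.57 in lh, and Ntng1 of -0.19 and -0.12. Other Ntng1 probe sets differed in sign. The changes in tg and lh were 0.25 and -0.08 for 1430779_at and -0.22 and 0.46 for 1441634_at. For 1426338_a_at they were 0.07 in tg and -0.35 in lh, the latter lower without overlap. None of these was called.

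The secreted proteins did not follow that direction in tg. Pappa gave 59.97, 41.6 and 48.3 in tg-/- cerebellum, against 30.8, 15.3 and 24.7 in tg+/+ cerebellum, higher on all 3 arrays, where 7.23% of all tested probe sets were higher without overlap. The change of 1.02 (SE 0.56) was not called (limma adjusted p = 0.774), and in lh it was -0.06. Ltbp2 gave 141, 250.4 and 247 in tg-/-, against 161, 136 and 182 in tg+/+, with overlap and a change of 0.37 (SE 0.25, adjusted p = 0.878). In lh the change of Ltbp2 was -0.30, also with overlap.

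**Figure D3:**
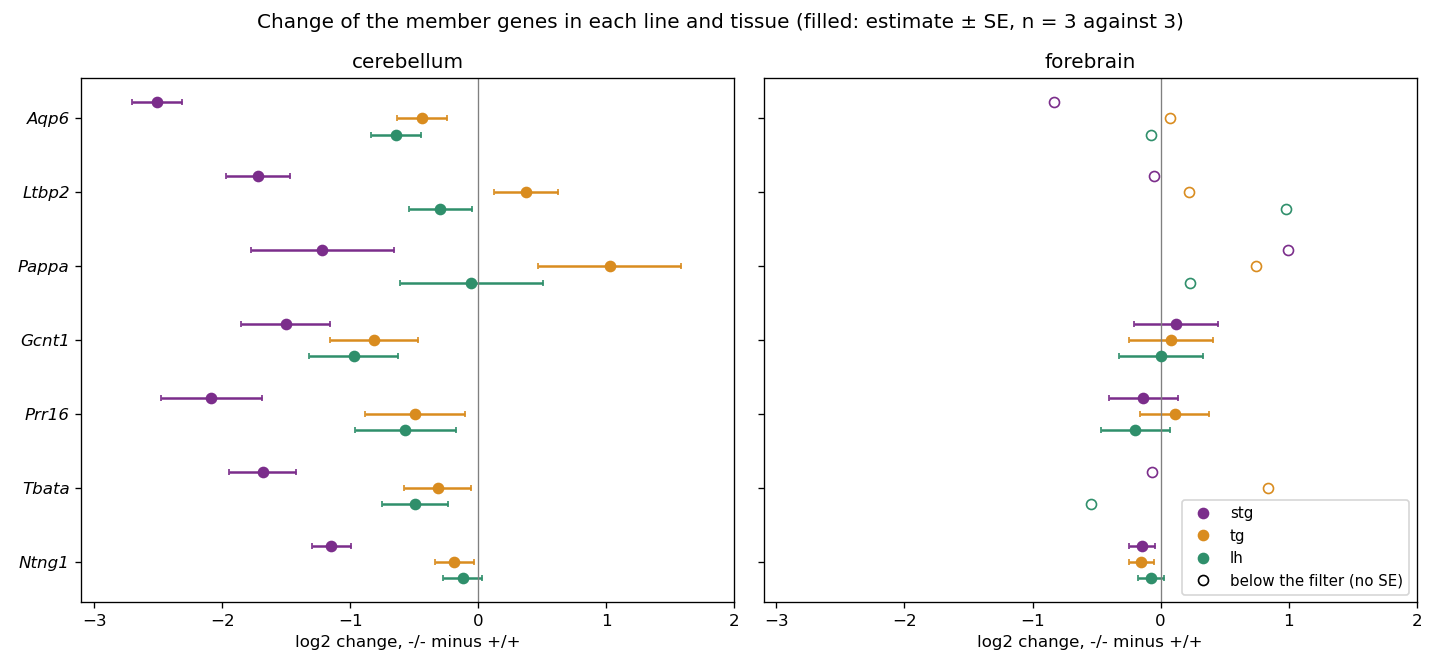
Log2 change, -/- minus +/+, of the 7 genes in stg, tg and lh, in cerebellum and in forebrain, with bars of 1 SE for n = 3 against 3 and open circles, without SE, for probe sets too weak to be tested. The cerebellum changes run from -2.51 to -1.15 in stg, from -0.81 to 1.02 in tg and from -0.97 to -0.06 in lh.

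In the forebrain the 3 genes with enough signal to be tested were not called in any line. In stg-/- against stg+/+ forebrain 0.0111% of all tested probe sets were called, in tg 0.189% and in lh 0.0148%, and the members' adjusted p-values by limma were 0.944 or higher in all 3 lines. None of these 3 genes reached an unadjusted p under 0.05 in any line. Ntng1 gave 366, 355 and 394 in stg-/- forebrain, against 368, 429.8 and 437 in stg+/+ forebrain, and the groups overlapped. Its change was -0.14 (SE 0.10) in stg, -0.15 in tg and -0.07 in lh, and in tg all 3 tg-/- arrays, at 374, 416 and 423, lay below the tg+/+ arrays, as 5.06% of all tested probe sets did, at 428, 469 and 449.9.

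Gcnt1 gave 34.9, 27.0 and 50.6 in stg-/- forebrain, against 27.1, 36.9 and 36.7 in stg+/+ forebrain, a change of 0.12 (SE 0.33). Prr16 gave 55.9, 59.2 and 49.1 in stg-/- forebrain, against 63.6, 47.9 and 71.5 in stg+/+ forebrain, a change of -0.14 (SE 0.27). For both genes the groups were intermixed. Without the 3 forebrain arrays high in Gh and Prl the stg changes were -0.23 for Ntng1, -0.01 for Gcnt1 and -0.37 for Prr16, and the lh changes -0.10, 0.01 and -0.32, none of them called. The other 4 genes were weak in forebrain, with changes in stg of -0.83 for Aqp6, -0.05 for Ltbp2, 0.997 for Pappa and -0.06 for Tbata, all with overlapping arrays. The Pappa probe set 1427633_a_at went the other way, with a change of -0.89 in stg forebrain, lower without overlap. Its means were 5.88 ± 1.37 in stg-/- and 14.1 ± 6.57 in stg+/+ forebrain (SD, n = 3 each), too weak to be tested. It was the only 1 of the 19 probe sets in that position, where 3.87% of all tested probe sets were. In lh-/- forebrain Ltbp2 gave 26.5, 20.8 and 22.5, against 16.5, 8.28 and 7.62 in lh+/+ forebrain, higher without overlap as were 6.2% of all tested probe sets, but too weak to be tested. Whether the stg change differed between cerebellum and forebrain was not tested, because the cerebellum change had chosen the genes.

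Cerebellum and forebrain were compared on the 6 cerebellum and 6 forebrain arrays of tg+/+ and lh+/+ mice. In this comparison 49.7% of all tested probe sets were called, 26.9% as higher in cerebellum and 22.7% as lower. Gcnt1, Prr16 and Ntng1 had enough signal in both tissues for a test. Aqp6, Ltbp2 and Tbata were too weak in forebrain and passed the filter through their cerebellum signal, so their levels are described without a test, and the size of their differences rests on the added constant.

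Aqp6 ran from 246 to 419 on the +/+ cerebellum arrays of tg and lh, against 0.786 to 18.5 on their forebrain arrays. Its means were 315 ± 69.9 in cerebellum and 9.31 ± 6.14 in forebrain (SD, n = 6 each), a difference of 4.85 on the log2 scale. Ltbp2 averaged 145 ± 32.2 in cerebellum and 10.3 ± 3.68 in forebrain (SD, n = 6 each), a difference of 3.49. Both were higher on every cerebellum array than on any of the forebrain arrays.

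Tbata averaged 84.96 ± 10.9 in cerebellum and 21.1 ± 10.3 in forebrain (SD, n = 6 each), a difference of 2.11 without overlap. Gcnt1 averaged 70.97 ± 36.2 in cerebellum and 38.3 ± 10.7 in forebrain (SD, n = 6 each), a difference of 0.73 (SE 0.24, limma adjusted p = 0.0126) with overlap. By line it was 1.41 (adjusted p = 0.00149) in lh+/+ and 0.06 (adjusted p = 0.921) in tg+/+ by the same limma fit, and the difference between the lines was not tested. Prr16 differed by 0.36 (adjusted p = 0.233) and overlapped. Pappa averaged 38.9 ± 24.7 in cerebellum and 13.1 ± 7.28 in forebrain (SD, n = 6 each), too weak to be tested.

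Ntng1 was the gene with the opposite pattern. It averaged 185 ± 9.999 in cerebellum and 446 ± 16.9 in forebrain (SD, n = 6 each), a difference of -1.26 (SE 0.09, limma adjusted p = 1.06e-13), lower on every cerebellum array. Of its other probe sets, 1430779_at differed by -0.53 (adjusted p = 0.000156) and 1426338_a_at by -0.70 (adjusted p = 0.0334) by limma, and 1441634_at by -0.12 without a call. The call of 1426338_a_at was lost, at adjusted p from 0.0515 to 0.0685 by limma, when any 1 of 6 arrays was left out, among them the lh+/+ forebrain array high in Gh and Prl. The calls of Gcnt1 and Ntng1 by their brightest probe sets were kept without any 1 array.

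Set beside the 18 forebrain arrays, the stg-/- cerebellum took no common position. Aqp6 and Ltbp2 were still above all forebrain arrays, with lowest stg-/- cerebellum values of 37.8 and 46.2 against highest forebrain values of 26.6 and 26.5. Gcnt1, Prr16 and Ntng1 were below all of them, with highest stg-/- cerebellum values of 15.8, 19.9 and 84.0 against lowest forebrain values of 24.96, 31.2 and 355. Pappa and Tbata overlapped the forebrain range. The share of all tested probe sets in each of these positions was not computed, and the stg-/- cerebellum arrays had chosen the genes. For Gcnt1 and Prr16 the stg+/+ cerebellum overlapped the stg+/+ forebrain, at 31.6 to 46.1 and 27.1 to 36.9 for Gcnt1 and at 43.7 to 78.3 and 47.9 to 71.5 for Prr16.

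**Figure D4:**
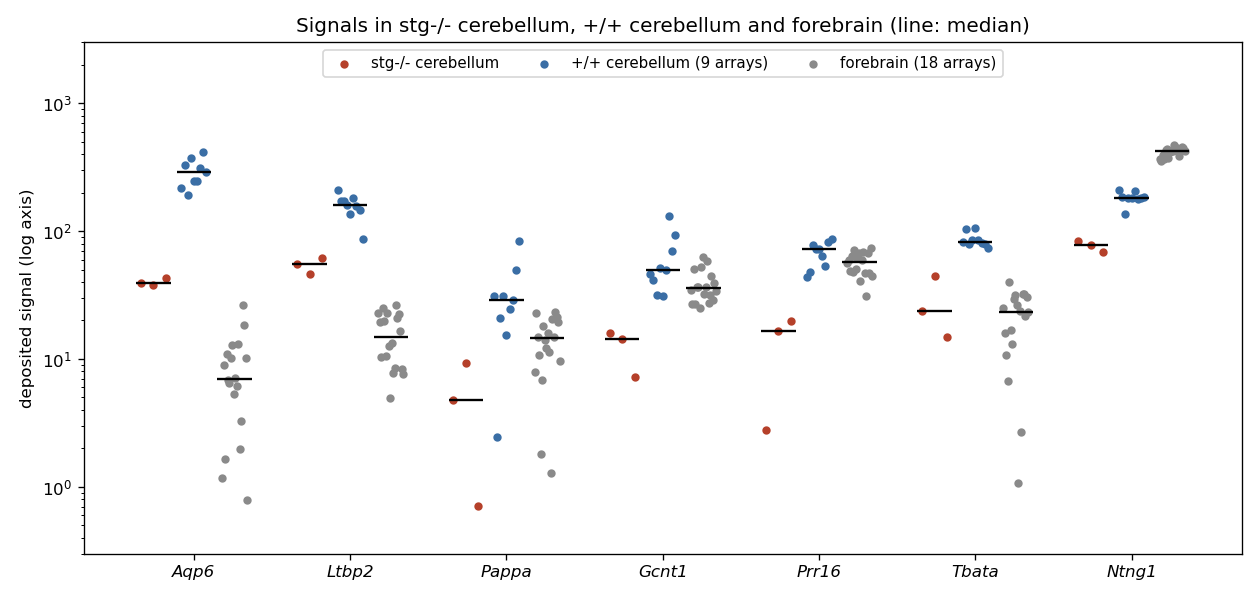
Signal of the 7 genes in deposited units on a log axis, from left to right on the 3 stg-/- cerebellum arrays, the 9 +/+ cerebellum arrays and all 18 forebrain arrays, with a line at the median. The stg-/- cerebellum arrays lie between the +/+ cerebellum and the forebrain for Aqp6 and Ltbp2, and below both for Gcnt1, Prr16 and Ntng1.

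The 7 genes did not vary together where stg was left aside. Over the 12 cerebellum arrays of tg and lh the 21 pairs of genes had Pearson correlations of log2 values from -0.57, for Ltbp2 with Gcnt1, to 0.63, for Aqp6 with Prr16. The median was 0.14, and 13 of the 21 were above 0. These are descriptions over arrays that share line and genotype.

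For each gene the named genes with the most similar pattern over the 18 cerebellum arrays were listed, 2 for each. These correlations include the stg difference that chose the members, so the value over the 12 tg and lh arrays is given beside each. Those 12 arrays are among the 18 by which the similar genes were picked, so that value is not free of the picking. Tbata was closest to Ncald, which encodes the calcium sensor neurocalcin delta, with r = 0.95 over 18 arrays and 0.87 over 12. Vsnl1, a calcium sensor of the same family, was second for Tbata and first for Ntng1, with r = 0.91 and 0.94 over 18 arrays and 0.70 and 0.73 over 12. Ltbp2 was closest to Mapk12, a p38 kinase, with r = 0.93 over both sets of arrays, and Gcnt1 to Rabgap1l, with r = 0.90 over both.

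Aqp6 was closest to Cacng2 itself, at r = 0.96 over 18 arrays, but at 0.38 over the 12 tg and lh arrays, where Cacng2 is intact. Dclk1, a kinase of microtubules, was its second, at 0.95 and 0.66. Pappa was closest to Ccnh, at 0.87 and 0.85, and Prr16 to Nap1l2, at 0.90 and 0.53. The remaining second genes were Ror1 for Ntng1, at 0.94 and 0.20, and Myo1c for Pappa, at 0.86 and 0.59. Fam53b for Prr16 stood at 0.88 and 0.68, Atoh7 for Ltbp2 at 0.90 and 0.74, and Nuak1 for Gcnt1 at 0.87 and 0.81. With group means taken out, r over the 18 arrays ran from 0.27 for Aqp6 with Dclk1 to 0.86 for Pappa with Myo1c. Ncald had changes of -1.60 in stg, -0.47 in tg and -0.63 in lh cerebellum, and in tg and lh it was not called (limma adjusted p = 0.175 and 0.0656).

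Lists of 6 pathways around the members were drawn up, without the members themselves and with earlier results of these data known. In the stg-/- cerebellum 2 genes in them were called, each lower, where 0.777% of all tested probe sets were called as lower. Igfbp5, which encodes an IGF-binding protein that the Pappa protease can cut, fell to a mean of 272 in stg-/- cerebellum, against 597 in stg+/+ cerebellum, a change of -1.15 (SE 0.17, limma adjusted p = 0.000872). Galnt13, which starts mucin-type O-glycan chains in neurons and so acts ahead of Gcnt1, fell to 376 in stg-/-, against 801 in stg+/+, a change of -1.09 (SE 0.14, limma adjusted p = 0.000179). They were the called ones of 13 tested genes of the IGF axis and of 13 tested O-glycan enzymes.

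No tested gene was called in stg among 4 other aquaporins, 14 genes of LTBPs, fibrillins and TGF-beta, 12 netrins, netrin-G ligands and receptors, or 4 partners of Tbata. The median changes in stg were 0.07 for aquaporins, 0.03 for the IGF axis, 0.17 for the LTBP list, 0.01 for O-glycan enzymes, 0.18 for netrins and 0.14 for Tbata partners, beside 0.01 over all tested probe sets. Lrrc4c, the partner of netrin-G1, had a change of 0.10, and Ntng2, the closest relative of Ntng1, of 1.64 (limma adjusted p = 0.104). Igfbp4, the best-known substrate of the Pappa protease, had a change of 0.03, and Aqp4, the main aquaporin of astrocytes, of 0.12. In tg and lh cerebellum no gene of the 6 lists was called.

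Summed signals of some cerebellar cell type markers also lay apart between genotypes, in stg and in the other lines. The summed signal of 12 granule cell markers was 34509 to 36408 in stg-/- and 36894 to 42472 in stg+/+ cerebellum, with 9 of 12 changes below 0, of which Gabra6, a GABA-A receptor subunit of granule cells, fell by 0.41 on the log2 scale (limma adjusted p = 0.0129). The same sum was 33157 to 34741 in lh-/- and 40331 to 44100 in lh+/+, with 11 of 12 below 0. In tg it was 38025 to 40608 in tg-/- and 40673 to 43494 in tg+/+, with 8 of 12 below 0. Of the 12 markers 1 was called lower in lh as well, and 0 in tg. Among the other lists, 1 of 11 glial markers was called lower in tg and 2 of 10 cerebellum markers in stg, of which 1 was Gabra6 again. The granule cell sums did not overlap between genotypes in any of the 3 lines, though in tg they lay close, at 40608 and 40673. Their relation to the changes of the 7 genes was not tested.

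The summed signal of 11 Purkinje cell markers was 58074 to 64086 in stg-/- and 45586 to 57623 in stg+/+, and that of 11 choroid plexus markers, which overlapped, 12818 to 17587 in stg-/- and 4001 to 14544 in stg+/+. For 12 markers of brainstem and deep nuclei the sums were 456 to 619.5 in stg-/- and 369 to 455 in stg+/+, and Slc17a6, a vesicular glutamate transporter, rose by 0.88 (limma adjusted p = 0.00376). Gfap, an astrocyte filament, rose by 0.93 in stg (limma adjusted p = 0.0283), with sums of 11 glial markers at 18641 to 20410 in stg-/- and 17137 to 18384 in stg+/+. The 8 forebrain markers summed to 925 to 1099 in stg-/- and 716 to 903 in stg+/+ cerebellum, without overlap.

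The sums of 9 microglia markers were higher without overlap in all 3 lines, at 1028 to 1169.5 in stg-/- and 913 to 1023 in stg+/+, at 1230.5 to 1479 in tg-/- and 972 to 1136 in tg+/+, and at 1179.9 to 1219 in lh-/- and 903 to 990.1 in lh+/+. In lh the sums of 11 markers of meninges and fibroblasts were 1899 to 2376 in lh-/- and 1323 to 1494 in lh+/+, those of brainstem and deep nuclei 495 to 530.3 in lh-/- and 308 to 399.98 in lh+/+, and those of the 10 cerebellum markers 43997 to 46542 in lh-/- and 49180 to 52109 in lh+/+. In tg the sums were 2787 to 2847 in tg-/- and 2418 to 2558 in tg+/+ for 9 markers of molecular layer interneurons and Golgi cells, 2560 to 2837 in tg-/- and 3057 to 3122 in tg+/+ for 3 of unipolar brush cells, and 1034 to 1114 in tg-/- and 1127 to 1232 in tg+/+ for 7 of endothelial cells. None of these groups overlapped, and the remaining sums of the 13 marker lists did. How often sums of as many other probe sets lie apart was not computed. The sums include markers too weak to be tested: 6 of the 9 microglia markers and 4 of the 12 brainstem markers were tested in cerebellum. The part of any of these cell types in the changes of the 7 genes was not tested.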

How the data were processed

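The authors deposited intensities on a linear scale, and their normalization, summary method and software are not given in the sources used here. Each array had a mean of 150 once the lowest and highest 2% of its values were trimmed, and values ran from 0.0223 to 16805. For arrays, their number limits the precision. The 64 AFFX controls were left out. Symbols came from the platform annotation: 34958 probe sets had 1 symbol, 932 several and 9211 none, and 34754 of the first matched RefSeq (GRCm38.p6) by Entrez ID and 204 did not.

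Group means of log2(signal + 2.98) were fitted with limma 3.58.1 in R 4.3.3, with an intensity trend and Benjamini-Hochberg adjustment over 27022 probe sets, and the fit was tested on simulated data. P-values measure the spread between these samples, which may be technical, since the labels do not say that each array is a separate animal. Replicate numbers come from the labels in cerebellum and from record order in forebrain, where they only name arrays. In stg cerebellum the deviations of same-numbered arrays correlated at 0.156, 0.188 and 0.380, so these were read as pairs from the data, and the block was run as an alternative. With each number held once by each genotype, the block cannot change a member's size. It raised the number of called probe sets in stg cerebellum to 1018, against 352 without it. The adjusted p-values and calls given above for list genes and markers in stg cerebellum come from the fit without the block.

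The members and lists were chosen with earlier results of these data known. Genes were named as members, called list genes, the mutated genes, and the 2 genes most like each member. Alternatives were the filter, the constant, quantile normalization, the trend, array weights, fits of 6 arrays alone, the block and leaving out each array.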

Additional observations from a re-analysis of the deposited data

Results flagged for a closer look

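The Pappa probe set 1427633_a_at had changes of opposite sign in the cerebellum of different lines, each time without overlap between genotypes. Its log2 change, -/- minus +/+, was -1.87 in stg, 0.67 in tg and -0.50 in lh. Of all tested probe sets 7.48% were lower without overlap in stg, 7.23% higher in tg and 5.47% lower in lh cerebellum. The signals were 31.1, 44.4 and 45.2 in tg-/-, against 29.3, 20.1 and 23.1 in tg+/+, and 45.8, 34.2 and 47.8 in lh-/-, against 58.5, 57.6 and 66.7 in lh+/+. Neither the tg nor the lh change was called by limma (adjusted p = 0.812 and 0.849), and the difference between lines was not tested, since the stg change had chosen the gene. In forebrain this probe set was too weak to be tested. Its change there was -0.89 in stg, lower without overlap, and 0.76 in tg and -0.84 in lh, both with overlap.

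The Tbata probe set 1425957_x_at had changes of opposite sign in the 2 tissues of tg, again without overlap. The log2 change was -0.25 in tg cerebellum and 0.47 in tg forebrain, where the signals were 20.1, 15.2 and 12.9 in tg-/-, against 8.94, 12.1 and 10.97 in tg+/+. These forebrain signals were too weak for a test, and the difference between tissues was not tested. Without overlap 6.81% of all tested probe sets were lower in tg cerebellum and 4.64% higher in tg forebrain. Both flagged results were picked from the 19 probe sets of the members over all lines and tissues.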

How the results depend on the processing

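No called change of a member turned its sign. The filter, the trend, the block and the fits of 6 arrays alone cannot alter the size of a change. Their values are among those counted here, but only the other alternatives could turn a sign. Changes of at most 0.20 in size, none of them called, did turn: 5 of 199 recomputed values in stg cerebellum, all of the Ntng1 probe set 1441634_at, 12 of 201 in tg cerebellum, 6 of 194 in lh cerebellum, 5 of 81 in stg, 6 of 75 in tg and 15 of 81 in lh forebrain, and 1 of 190 between tissues. By their brightest probe sets these were Gcnt1 in forebrain, down to -0.10 in stg, -0.16 in tg and -0.18 in lh, and Prr16 in forebrain, down to -0.09 in tg and up to 0.07 in lh. In stg cerebellum, where no test applies, leaving out 1 array left 6 to 7 of the 7 genes lower without overlap, against 6 with all arrays. When any probe set of a gene was counted, 7 of 7 were lower without overlap. No member was called in tg or lh cerebellum or in any forebrain under any alternative, and the lowest adjusted p was 0.0739, for Aqp6 in lh with the replicate block. In the comparison of tissues by limma, Gcnt1 and Ntng1 kept their calls by their brightest probe sets under every alternative, and Prr16 stayed uncalled. The Ntng1 probe set 1426338_a_at lost its call in 6 alternatives, at adjusted p from 0.0515 to 0.0685. Aqp6, Ltbp2 and Tbata were described without a test between tissues, so no call is counted for them.

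The counts over all probe sets moved more. In stg cerebellum 352 were called, 225 to 291 with 1 array left out, 194 from its 6 arrays alone and 1018 with the replicate block. The count fell past 1.5 times without stg-/- replicate 3 (233), stg+/+ replicate 1 (225) and stg+/+ replicate 3 (231). In tg cerebellum the count was 155, and it was 63 to 116 with 1 array left out, 390 with array weights and 429 with the replicate block. In lh cerebellum it was 42, and 16 to 36, 6 from its 6 arrays alone and 211 with the replicate block. Same-numbered arrays correlated at 0.292, 0.040 and 0.244 in tg and at 0.225, 0.095 and 0.333 in lh. The second pair of each line was under the limit of 0.1, so these lines were not read as paired. All lh pairs, and all tg pairs but the second, still correlated best with their own number. Whether these arrays share more than a number was not settled. In forebrain the counts were 3 in stg, 51 in tg and 4 in lh. With 1 array left out they were 2 to 3, 13 to 36 and 1 to 8. Array weights gave 5, 117 and 9, a fit without trend gave 27 in tg and 2 in lh, and leaving out the 3 arrays high in pituitary transcripts, an alternative chosen after seeing the data, gave 6 in stg. The tissue comparison called 13418 probe sets, and 10204 to 14446 under the alternatives. The cause of these shifts was not tested. Signals near the floor, above all those of Pappa and of Aqp6, Ltbp2 and Tbata in forebrain, limit what can be read from their changes, and no detection calls were used.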
